A study of Homo sapiens with 10 samples.

Results

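Day 10 attached cultures were set against day 4 suspension cultures in a neural differentiation of H9, an established human embryonic stem cell line. The comparison used 4 of the 10 RNA sequencing libraries: SOX1-OT V1 PAKI cells (V1PAKI) and wild-type H9 cells (Ctrl) at d10, and the same lines at d4. Genes entered when they reached 1 FPKM (a fragment count per unit of transcript length and library size) in at least 2 of these 4 libraries, which left 13451 of 42335 genes. Colonies had been lifted with dispase and grown in suspension as embryoid bodies without FGF-2. A neural medium with N2 supplement and heparin was given from day 4, and the bodies were plated on plastic on day 7. The d4 libraries therefore stand at the switch of medium, and the d10 libraries follow neural medium and attachment together, which the design cannot tell apart. The labels do not say whether the d10 cells had met the Sonic hedgehog protein and SAG that the ventral arm received from day 10. Both lines passed through the same media. The labels leave PAKI unexplained and give 1 line of each genotype, with 1 library per line and stage and no mark of separate cultures.

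Human pluripotent cells that are freed from their feeder signals and left without added growth factors tend toward anterior neural fate. They lose the transcription factors that hold the stem cell state, and they trade E-cadherin for N-cadherin as a columnar neuroepithelium forms. Plating adds a stiff surface, on which cells spread, pull on integrins and load the actin cytoskeleton. The coactivators YAP and MRTF carry that load to the nucleus, where they work with the DNA-binding factors TEAD and SRF.

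FPKM sums lay between 212008 and 246809 in the 4 libraries, and the mitochondrially encoded share was 20.2% in V1PAKI and 18.0% in Ctrl at d10, against 23.4% in V1PAKI and 23.8% in Ctrl at d4. Sequencing depth is unknown. Of the genes in the study's title, SOX1, a factor of early neural progenitors, was at 0.306 FPKM in V1PAKI and 1.26 in Ctrl at d10, against 0.0613 in V1PAKI and 0.0605 in Ctrl at d4. SOX1-OT, its noncoding neighbour, had 0.0432 FPKM in V1PAKI and 0.0513 in Ctrl at d10, against 0.0167 in V1PAKI and 0.0159 in Ctrl at d4. Neither gene entered the test. HDAC10, a histone deacetylase, was at 1.05 FPKM in V1PAKI and 2.49 in Ctrl at d10, against 2.68 in V1PAKI and 2.74 in Ctrl at d4, and its mean change did not pass (adjusted p = 0.483 in limma).

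All 4 libraries carry the label of a neural progenitor cell. At d10, PAX6, a master regulator of neuroectoderm and eye, was at 2.31 FPKM in V1PAKI and 2.26 in Ctrl, against 0.0743 in V1PAKI and 0.378 in Ctrl at d4. POU5F1, the core pluripotency factor OCT4, was at 62.7 FPKM in V1PAKI and 134 in Ctrl at d10, against 328 in V1PAKI and 268 in Ctrl at d4. Of the markers of neuroepithelium, PAX6 and SOX1 were below 1 FPKM at d4 in both lines. The N-cadherin gene CDH2 was at 5.78 FPKM in V1PAKI and 8.21 in Ctrl at d4, and LIX1 at 1.25 in V1PAKI and 2.42 in Ctrl. SOX1 stayed below 1 FPKM in V1PAKI at d10 as well. At d4 CDH2 was below its d0 levels of 11.96 FPKM in V1PAKI and 11.27 in Ctrl, and LIX1 was above its listed 0. Core pluripotency factors summed to 1226 FPKM in V1PAKI and 1127 in Ctrl at d4, against 1032 in V1PAKI and 937.7 in Ctrl at d0. Eye-field and forebrain genes summed to 71.29 FPKM in V1PAKI and 135.3 in Ctrl at d4. At d0 they had summed to 24.52 in V1PAKI and 22.11 in Ctrl. The d4 libraries thus kept the summed core factors of d0, with some neural genes above d0. The label itself was not tested. At d10 the stem cell factor LIN28A still had 308 FPKM in V1PAKI and 285 in Ctrl, against 391 in V1PAKI and 427 in Ctrl at d4.

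At d10 neuroepithelial, eye-field and matrix genes were among those that rose, and stem cell genes among those that fell. On log2(FPKM + 1), 184 of 13451 genes rose at d10 (1.37%) and 112 fell (0.833%) at an adjusted p of 0.05, in a limma fit of stage and line to all 10 libraries. The changes in V1PAKI and in Ctrl had the same sign for all 296 genes called (2.2%), which the fit favours, since its error is the departure of the lines from parallel courses. Before adjustment, 1088 genes were higher and 1126 lower at a p under 0.05. When FPKM was rescaled to TPM, 283 genes rose and 43 fell, so that 86.8% of calls were rises against 62.2% as deposited. The median change of all genes shifted by 0.131 on the log2 scale. TPM values are larger than FPKM here, while the added pseudocount stayed at 1, so scale and pseudocount changed together. With FPKM and a pseudocount of 0.1, 82.6% of calls were rises, and with median-of-ratios scaling 61.6%. The calls depend on single libraries: without the Ctrl d4 library 4 genes rose and none fell, and without V1PAKI d4 or V1PAKI d10 none passed. Without Ctrl d10, 211 rose and 179 fell, and 162 of the 296 calls were among them. The p-values do not measure the spread of repeated cultures.

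Counted without a test, 326 genes were higher by at least 1 on the log2 scale in both lines (2.42%) and 189 were lower in both (1.41%). In 237 genes the rise was of that size in V1PAKI and under 0.5 in Ctrl (1.76%), and 565 genes were lower in V1PAKI alone (4.2%). The corresponding numbers for Ctrl alone were 192 higher (1.43%) and 116 lower (0.862%). A further 20 genes changed by at least 1 in opposite directions (0.149%), 7 of them higher in V1PAKI (0.052%) and 13 higher in Ctrl (0.0966%). Whatever the other line did, 745 genes were higher by at least 1 in V1PAKI (5.54%) and 1053 lower (7.83%), and 722 were higher in Ctrl (5.37%) and 406 lower (3.02%). Of the genes called, 159 of the 184 rises and 86 of the 112 falls lay in the classes shared by both lines. The fit is not built to call genes of the single-line or opposite classes, where the lines differ, and it called none. The median change over all genes was 0.01 in V1PAKI and -0.05 in Ctrl.

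**Figure D1:**
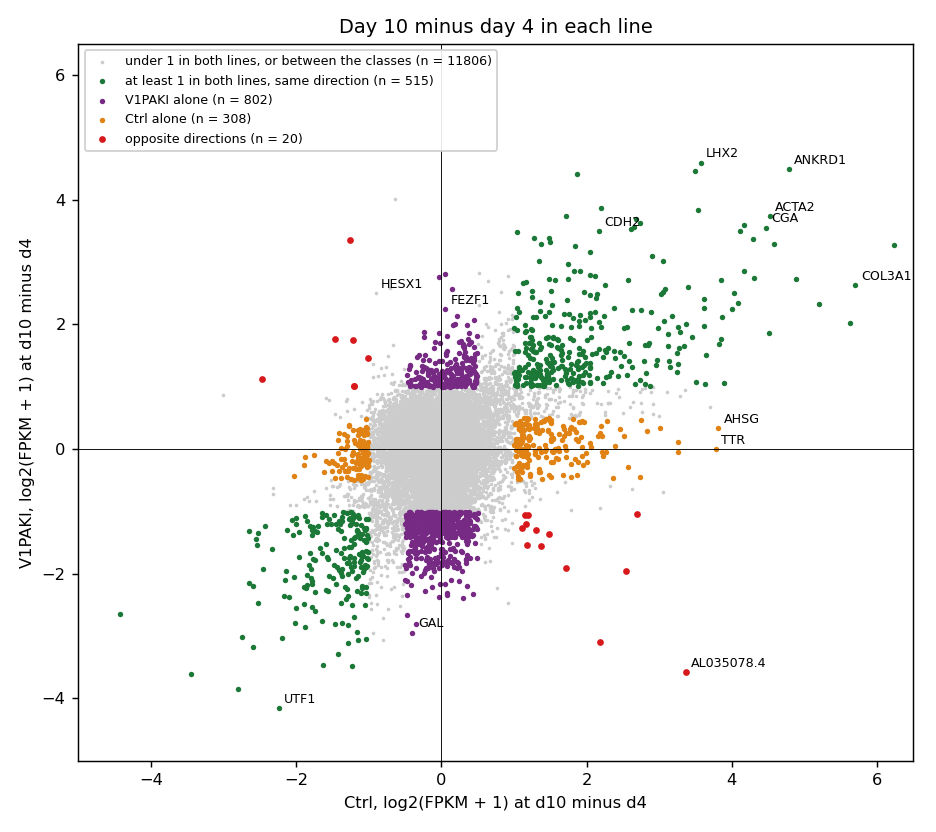
Change of each of the 13451 genes, as log2(FPKM + 1) at d10 minus d4, in V1PAKI (vertical axis) and Ctrl (horizontal axis); each point is a gene, coloured by class. Genes such as ANKRD1 and LHX2 lie far up the diagonal, UTF1 far down it, and TTR and AHSG lie along the Ctrl axis with almost no change in V1PAKI.

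At the entry limit, ATP8A2 and AC007128.1 came in with a second-highest value of 1.00 FPKM, and MYBL1 at 0.99955 and LEMD1 at 0.99932 FPKM stayed out. The limit also kept out 1479 genes that reached 1 FPKM in a single library, 462 of them in V1PAKI d10, 559 in Ctrl d10, 214 in V1PAKI d4 and 244 in Ctrl d4. Of these, 26 reached 5 FPKM, and 23 of the 26 did so in Ctrl d10.

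The largest rises included a YAP target, a smooth muscle actin and genes of matrix, forebrain and hormone. ANKRD1, a nuclear ankyrin protein that YAP induces, was at 33.3 FPKM in V1PAKI and 39.3 in Ctrl at d10, against 0.525 in V1PAKI and 0.467 in Ctrl at d4. Its mean rise of 4.64 on the log2 scale (SE 0.55, adjusted p = 0.0131) was the largest of all genes called. The d16 values of ANKRD1 were back between 0.13 and 4.06 FPKM. ACTA2, the smooth muscle actin, was at 20.1 FPKM in V1PAKI and 30.4 in Ctrl at d10, against 0.576 in V1PAKI and 0.366 in Ctrl at d4. It rose by 4.13 (SE 0.49, adjusted p = 0.0131). TGM2, a transglutaminase that cross-links matrix proteins, had 10.6 FPKM in V1PAKI and 27.8 in Ctrl at d10, against 0.189 in V1PAKI and 0.21 in Ctrl at d4, a rise of 3.93 (SE 0.48, adjusted p = 0.0131). All 3 of these genes were higher in Ctrl than in V1PAKI at d10, and each was far above its d4 level in both lines.

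LHX2, a LIM homeodomain factor of forebrain and eye, was at 44.3 FPKM in V1PAKI and 27.8 in Ctrl at d10, against 0.873 in V1PAKI and 1.43 in Ctrl at d4, and rose by 4.08 (SE 0.55, adjusted p = 0.0185). DLK1, an imprinted membrane protein related to Notch ligands, reached 95.0 FPKM in V1PAKI and 98.0 in Ctrl at d10, against 3.36 in V1PAKI and 7.81 in Ctrl at d4 (3.97, SE 0.32, adjusted p = 0.00802). PTN, the secreted growth factor pleiotrophin, was at 203 FPKM in V1PAKI and 78.4 in Ctrl at d10, against 14.7 in V1PAKI and 11.3 in Ctrl at d4. COL2A1, the type II collagen also made by early neuroepithelium, was at 18.6 FPKM in V1PAKI and 32.7 in Ctrl at d10, against 0.624 in V1PAKI and 0.871 in Ctrl at d4. IGFBP5, a binding protein of insulin-like growth factors, was at 48.9 FPKM in V1PAKI and 53.2 in Ctrl at d10, against 2.49 in V1PAKI and 3.69 in Ctrl at d4. These 5 genes stayed above 20 FPKM in all 4 day 16 libraries, whereas ANKRD1 and TGM2 did not exceed 5 FPKM there.

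Other genes among the largest rises are known from amnion, placenta and heart. CGA, the alpha subunit of the glycoprotein hormones, was at 10.9 FPKM in V1PAKI and 23.6 in Ctrl at d10, against 0.0199 in V1PAKI and 0.111 in Ctrl at d4. It rose by 4.01 (SE 0.30, adjusted p = 0.00716). By day 16 its highest value was 0.646 FPKM, in Ctrl d16D. GABRP, a GABA receptor subunit of amnion and other epithelia, was at 20.8 FPKM in V1PAKI and 25.6 in Ctrl at d10, against 0.925 in V1PAKI and 0.541 in Ctrl at d4. NPPB, the precursor of B-type natriuretic peptide and a marker of stretched heart muscle, was at 16 FPKM in V1PAKI and 36.7 in Ctrl at d10, against 2.33 in V1PAKI and 1.23 in Ctrl at d4. Its rise was 3.21 (SE 0.44, adjusted p = 0.0202).

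**Figure D2:**
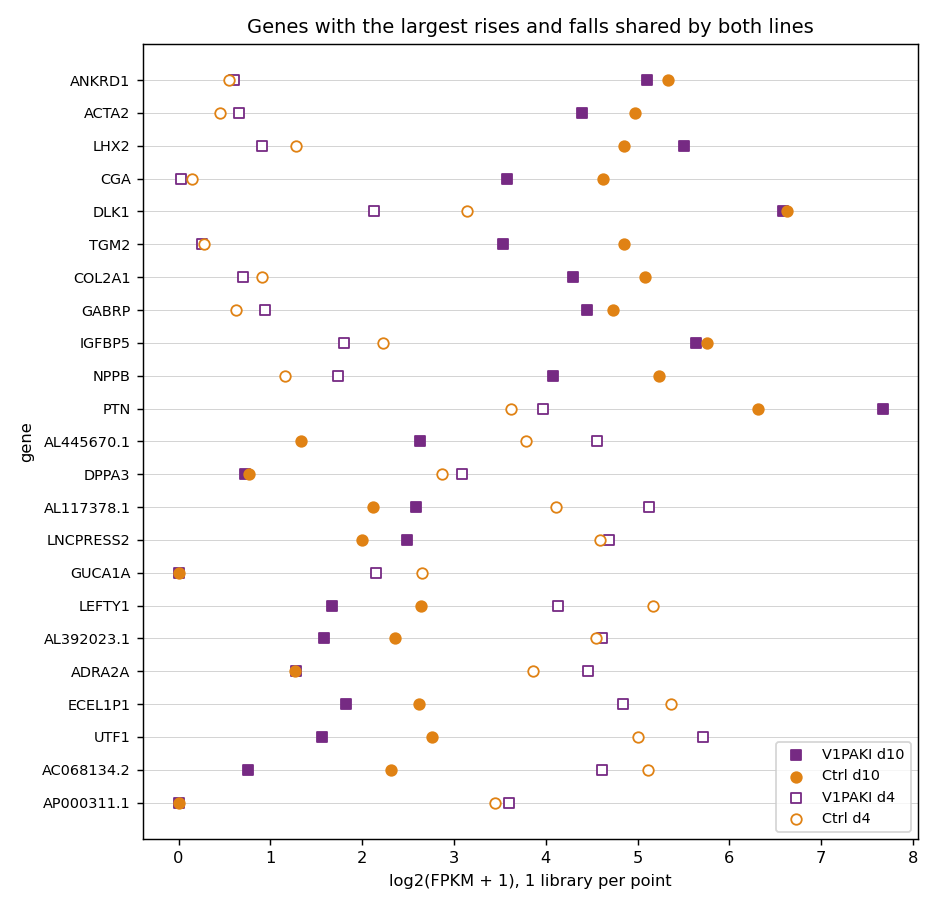
Level of the genes with the largest rises and falls among genes called, as log2(FPKM + 1) on the horizontal axis; each point is 1 library, filled for d10 and open for d4, with squares for V1PAKI and circles for Ctrl. The genes, chosen by the size of their change, run from ANKRD1 at the top to AP000311.1, listed at 0 in both d10 libraries, at the bottom.

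Among the 12 largest falls were genes of the stem cell state and several that had peaked at d4. UTF1, a chromatin factor of embryonic stem cells, was at 1.95 FPKM in V1PAKI and 5.77 in Ctrl at d10, against 51.5 in V1PAKI and 31.0 in Ctrl at d4, and fell by 3.20 on the log2 scale (SE 0.55, adjusted p = 0.0347). At d0 it was at 6.44 FPKM in V1PAKI and 2.76 in Ctrl, so the d4 libraries held its highest levels. LEFTY1, a secreted antagonist of Nodal, was at 2.18 FPKM in V1PAKI and 5.25 in Ctrl at d10, against 16.5 in V1PAKI and 34.8 in Ctrl at d4. It fell by 2.49 (SE 0.46, adjusted p = 0.0411), and its d0 levels of 4.00 FPKM in V1PAKI and 3.43 in Ctrl also lay below d4. ADRA2A, the alpha-2A adrenergic receptor, was at 1.43 FPKM in V1PAKI and 1.41 in Ctrl at d10, against 20.9 in V1PAKI and 13.5 in Ctrl at d4. DPPA3, a maternal and germline factor that guards imprints, was at 0.647 FPKM in V1PAKI and 0.704 in Ctrl at d10, against 7.50 in V1PAKI and 6.30 in Ctrl at d4.

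A neighbouring pair on chromosome 2 fell together. The noncoding gene AC068134.2 (chr2:232420661-232421461, minus strand, GRCh38) was at 0.693 FPKM in V1PAKI and 3.98 in Ctrl at d10, against 23.5 in V1PAKI and 33.7 in Ctrl at d4. The pseudogene ECEL1P1 (chr2:232415818-232419816, minus strand) was at 2.54 FPKM in V1PAKI and 5.13 in Ctrl at d10, against 27.7 in V1PAKI and 40.3 in Ctrl at d4. Both were below 4 FPKM at d0 in either line. LNCPRESS2, a long noncoding RNA of embryonic stem cells, was at 4.62 FPKM in V1PAKI and 2.98 in Ctrl at d10, against 24.8 in V1PAKI and 23.0 in Ctrl at d4, and AL117378.1, AL392023.1 and AL445670.1 fell beside it. GUCA1A, which encodes a guanylate cyclase activator of photoreceptors, was listed at 0 in both d10 libraries, against 3.45 FPKM in V1PAKI and 5.31 in Ctrl at d4. AP000311.1 was listed at 0 as well, against 11.1 FPKM in V1PAKI and 9.93 in Ctrl at d4, and a listed 0 may be a failed estimate.

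All 11 core pluripotency factors were lower at d10 in both lines. Of the 11, 1 fell by the test and none rose, against 0.833% of all genes, and 8 were lower by at least 1 in both lines. Their median change was -2.04 in V1PAKI and -1.15 in Ctrl, beside 0.01 in V1PAKI and -0.05 in Ctrl over all genes. The one that passed was KLF4, a reprogramming factor, at 1.91 FPKM in V1PAKI and 2.15 in Ctrl at d10, against 8.77 in V1PAKI and 5.40 in Ctrl at d4 (-1.38, SE 0.24, adjusted p = 0.0347). At d0 KLF4 had been at 0.242 FPKM in V1PAKI and 0.293 in Ctrl. Its fall was therefore from a d4 peak, and its d10 level lay above d0. NANOG, at 2.86 FPKM in V1PAKI and 4.32 in Ctrl at d10, against 14.8 in V1PAKI and 10.8 in Ctrl at d4, did not pass (adjusted p = 0.0757). POU5F1 did not pass either (adjusted p = 0.32), with changes of -2.37 in V1PAKI and -1.0 in Ctrl. PRDM14, a repressor that guards naive identity, was at 14.9 FPKM in V1PAKI and 18.1 in Ctrl at d10, against 69.9 in V1PAKI and 64.8 in Ctrl at d4 (adjusted p = 0.0546).

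Of 14 measured germline and stem cell genes with LIN28 and DNA methyltransferase, 6 fell and none rose, against 0.833% of all genes called lower. The median change was -1.12 in V1PAKI and -1.52 in Ctrl. DNMT3B, the de novo methyltransferase of embryonic cells, was at 137 FPKM in V1PAKI and 173 in Ctrl at d10, against 470 in V1PAKI and 510 in Ctrl at d4 (-1.66, SE 0.30, adjusted p = 0.0376). DPPA4 was at 68.8 FPKM in V1PAKI and 52.3 in Ctrl at d10, against 151 in V1PAKI and 154 in Ctrl at d4, and its partner DPPA2 fell as well. In the Nodal pathway, whose signal keeps human stem cells undifferentiated, LEFTY1 alone passed of 10 genes. The median change of the pathway was -1.43 in V1PAKI and -0.38 in Ctrl. FOXH1, the DNA-binding partner of the pathway's SMADs, was at 5.19 FPKM in V1PAKI and 21.6 in Ctrl at d10, against 49.9 in V1PAKI and 45.5 in Ctrl at d4 (adjusted p = 0.232).

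Among the gene lists, neuroepithelial genes held the most rises. Of 24 measured members, 10 rose and none fell, against 1.37% of all genes called higher, with a median change of 1.40 in V1PAKI and 1.13 in Ctrl. CDH2, the N-cadherin of neuroepithelium, was at 75.5 FPKM in V1PAKI and 40.4 in Ctrl at d10, against 5.78 in V1PAKI and 8.21 in Ctrl at d4 (2.83, SE 0.32, adjusted p = 0.013). LIX1, an early neural gene, was at 22.6 FPKM in V1PAKI and 8.54 in Ctrl at d10, against 1.25 in V1PAKI and 2.42 in Ctrl at d4 (2.44, SE 0.40, adjusted p = 0.0326). The nuclear receptor NR2F1 was at 7.56 FPKM in V1PAKI and 7.52 in Ctrl at d10, against a listed 0 in V1PAKI and 0.139 in Ctrl at d4 (adjusted p = 0.00699), and its relative NR2F2 rose as well. PAX6 passed (1.43, SE 0.25, adjusted p = 0.0374), and so did ZBTB16, a zinc finger factor of neural rosettes, DACH1, MEIS2, CRB2 and SFRP2. The rise of SFRP2 was from a low at d4, at 78.0 FPKM in V1PAKI and 77.4 in Ctrl. It was at 184 FPKM in V1PAKI and 156 in Ctrl at d10, near its d0 levels of 163 in V1PAKI and 167 in Ctrl. The general progenitor genes SOX2 and NES did not pass: SOX2 was at 112 FPKM in V1PAKI and 91.3 in Ctrl at d10, against 120 in V1PAKI and 128 in Ctrl at d4.

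Eye-field and forebrain genes rose beside them. Of 13 measured members, 4 rose and none fell, against 1.37% of all genes called higher. The median change was 2.24 in V1PAKI and 1.04 in Ctrl. RAX, the earliest eye-field homeobox gene, was at 29.6 FPKM in V1PAKI and 24.3 in Ctrl at d10, against 1.49 in V1PAKI and 2.79 in Ctrl at d4 (3.18, SE 0.30, adjusted p = 0.0101). SIX6, a retina and hypothalamus factor, had 12.2 FPKM in V1PAKI and 6.58 in Ctrl at d10, against 0.112 in V1PAKI and 0.209 in Ctrl at d4 (3.11, SE 0.33, adjusted p = 0.011). MAB21L2, which acts in eye growth, was higher in Ctrl than in V1PAKI, at 4.00 FPKM in V1PAKI and 13.6 in Ctrl at d10, against 0.0383 in V1PAKI and 0.191 in Ctrl at d4 (adjusted p = 0.0354).

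Of 8 measured genes of midbrain, hindbrain and spinal cord, 3 rose, against 1.37% of all genes called higher. The 3 were FGF8, a growth factor of the anterior neural ridge and the isthmus, with PAX2 and PAX8, which also act in the optic stalk and ear. FGF8 was at 15.6 FPKM in V1PAKI and 17.1 in Ctrl at d10, against 1.66 in V1PAKI and 2.80 in Ctrl at d4 (2.44, SE 0.22, adjusted p = 0.00987). PAX2 was at 8.97 FPKM in V1PAKI and 3.74 in Ctrl at d10, against 0.118 in V1PAKI and 0.148 in Ctrl at d4. EN1 and EN2, which define the midbrain border, stayed under 0.1 FPKM in all 4 libraries. No Notch or proneural gene of 12 passed and no neuron gene of 10 passed. MAP2, a dendrite protein, was nearest at 11.1 FPKM in V1PAKI and 3.73 in Ctrl at d10, against 0.202 in V1PAKI and 0.675 in Ctrl at d4 (adjusted p = 0.0565), and ELAVL4 was below 0.01 FPKM throughout.

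Among genes of cadherin exchange and of mesenchyme, CDH2 and CDH11 rose, as did the intermediate filament VIM and the repressor of epithelial genes ZEB2. None of the 15 measured was called lower, and 1.37% of all genes were called higher. By at least 1 in both lines, 4 members were higher and 2 lower. The median change of the list was -0.60 in V1PAKI and 0.37 in Ctrl. CDH11 was at 11.5 FPKM in V1PAKI and 12.4 in Ctrl at d10, against 0.894 in V1PAKI and 1.25 in Ctrl at d4 (2.65, SE 0.27, adjusted p = 0.0108). VIM was at 76.9 FPKM in V1PAKI and 127 in Ctrl at d10, against 15.7 in V1PAKI and 19.8 in Ctrl at d4 (2.42, SE 0.41, adjusted p = 0.0345). SNAI2, a repressor active in mesenchyme and neural crest, was at 4.51 FPKM in V1PAKI and 10.6 in Ctrl at d10, against 0.33 in V1PAKI and 0.39 in Ctrl at d4, and did not pass (adjusted p = 0.105). CDH1, the E-cadherin of stem cells and epithelia, was at 25.5 FPKM in V1PAKI and 42.4 in Ctrl at d10, against 85.7 in V1PAKI and 91.8 in Ctrl at d4. Its changes of -1.71 in V1PAKI and -1.10 in Ctrl did not pass (adjusted p = 0.455).

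Of 19 measured genes that YAP and TEAD induce, 17 were higher at d10 in V1PAKI and 18 in Ctrl, where 6801 of all 13451 genes were higher in V1PAKI and 6025 in Ctrl. Of the 19, 8 were higher by at least 1 in both lines, and the median change was 0.81 in V1PAKI and 1.26 in Ctrl. By the test 5 members rose and none fell, against 1.37% of all genes called higher. Beside ANKRD1 these were AMOTL2, an inhibitor of YAP and its target, FJX1, ARHGEF17 and TGFB2. AMOTL2 was at 12 FPKM in V1PAKI and 23.2 in Ctrl at d10, against 4.93 in V1PAKI and 5.96 in Ctrl at d4 (1.46, SE 0.26, adjusted p = 0.0374). The standard targets CCN2 and CCN1 did not pass (adjusted p = 0.0769 and 0.109). CCN2 was at 33.7 FPKM in V1PAKI and 47.3 in Ctrl at d10, against 11.6 in V1PAKI and 15.8 in Ctrl at d4.

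In the wider contractile set of 18 measured SRF targets, ACTA2 alone passed. At d10, 6 of the 18 were higher in V1PAKI and 14 in Ctrl, against 6801 of all 13451 genes in V1PAKI and 6025 in Ctrl. The median change was -0.27 in V1PAKI and 0.56 in Ctrl. ACTC1, the cardiac actin, was at 137 FPKM in V1PAKI and 237 in Ctrl at d10, against 23.7 in V1PAKI and 28.2 in Ctrl at d4, and did not pass (adjusted p = 0.165). MYL9, a myosin light chain, was at 22.6 FPKM in V1PAKI and 66.7 in Ctrl at d10, against 38.5 in V1PAKI and 35.0 in Ctrl at d4, with changes of -0.74 in V1PAKI and 0.91 in Ctrl. Of 17 integrin and laminin genes 4 rose, against 1.37% of all genes called higher. The 4 were ITGA5 and ITGAV, which bind fibronectin and vitronectin, and the basement membrane genes LAMA1 and NID1. ITGA5 was at 9.83 FPKM in V1PAKI and 17.3 in Ctrl at d10, against 2.76 in V1PAKI and 3.36 in Ctrl at d4 (1.80, SE 0.30, adjusted p = 0.0329). ITGAV was at 26.6 FPKM in V1PAKI and 17.5 in Ctrl at d10, against 6.97 in both lines at d4 (1.51, SE 0.23, adjusted p = 0.0275).

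Promoters of the YAP and TEAD targets, the SRF targets and CGA were searched where the gene was higher by at least 1 in both lines, which is how they were chosen, whether or not it passed the test. Of 11 such genes, 10 matched a RefSeq promoter, which runs from 250 bases before to 50 bases after the start site on GRCh38.p14. Both strands were searched for GGAATG, which TEAD factors bind, for the CArG box of SRF and for TGACGTCA, the palindromic cAMP response element. GGAATG lay in 3 of the 10, against 14% of 34796 promoters, the CArG box in 1, against 1.3%, and TGACGTCA in 1, against 1.84%. The 4 promoters below hold the repeated motifs and the CArG box, and capitals mark the motif on the strand of the gene. They are ANKRD1 at chr10:90921038-90921337, CCN2 at chr6:131951323-131951622, ACTC1 at chr15:34795500-34795799 and CGA at chr6:87095057-87095356, all on the minus strand.
ANKRD1: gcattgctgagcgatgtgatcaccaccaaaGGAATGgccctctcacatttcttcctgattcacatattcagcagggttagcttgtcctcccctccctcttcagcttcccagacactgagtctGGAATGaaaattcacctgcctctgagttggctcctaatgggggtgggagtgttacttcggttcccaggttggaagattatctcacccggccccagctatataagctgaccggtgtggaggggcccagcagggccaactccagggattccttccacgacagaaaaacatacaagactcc
CCN2: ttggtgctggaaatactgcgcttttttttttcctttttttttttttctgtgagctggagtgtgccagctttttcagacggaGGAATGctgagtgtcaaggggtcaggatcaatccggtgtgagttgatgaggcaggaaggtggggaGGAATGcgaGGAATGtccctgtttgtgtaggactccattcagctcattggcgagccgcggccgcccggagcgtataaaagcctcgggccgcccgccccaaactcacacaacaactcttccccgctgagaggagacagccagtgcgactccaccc
ACTC1: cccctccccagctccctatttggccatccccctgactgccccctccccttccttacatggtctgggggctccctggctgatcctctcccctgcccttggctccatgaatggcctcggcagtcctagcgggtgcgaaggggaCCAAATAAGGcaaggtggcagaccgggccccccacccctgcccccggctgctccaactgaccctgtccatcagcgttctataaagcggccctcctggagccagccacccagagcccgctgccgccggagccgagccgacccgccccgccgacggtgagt
CGA: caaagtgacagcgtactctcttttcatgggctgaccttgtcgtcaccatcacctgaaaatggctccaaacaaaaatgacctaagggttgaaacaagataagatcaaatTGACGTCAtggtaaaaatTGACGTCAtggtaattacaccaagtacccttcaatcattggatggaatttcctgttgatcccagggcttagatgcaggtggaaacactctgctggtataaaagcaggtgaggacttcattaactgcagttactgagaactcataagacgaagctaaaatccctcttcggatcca
In ANKRD1 the GGAATG matches began 220 and 128 bases before the start site, and in CCN2 they began 169, 104 and 95 bases before it. The CArG box of ACTC1 began 109 bases before the start, and the matches of CGA began 142 and 124 bases before it. ACTA2 held none of the 3 motifs in its window at chr10:88991288-88991587, which lies at the upstream end of the annotated gene. Only 1 start site per gene was searched, so promoters at other starts of these genes were not seen. A match describes letters and not a bound site.

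Signalling genes changed in part. Of 17 measured WNT genes 5 rose and none fell, against 1.37% of all genes called higher. The 5 were WNT5B, the extracellular inhibitors FRZB and SFRP2, the nuclear effector LEF1 and the receptor LGR5. As given above, SFRP2 rose from a low at d4 to near its d0 levels. WNT5B was at 6.78 FPKM in V1PAKI and 9.02 in Ctrl at d10, against 0.663 in V1PAKI and 0.496 in Ctrl at d4 (2.48, SE 0.23, adjusted p = 0.00987). FRZB was at 64.4 FPKM in V1PAKI and 76.9 in Ctrl at d10, against 12.7 in V1PAKI and 14 in Ctrl at d4 (2.32, SE 0.37, adjusted p = 0.0288). AXIN2, the feedback target of WNT, was at 4.17 FPKM in V1PAKI and 7.58 in Ctrl at d10, against 12.4 in V1PAKI and 12.3 in Ctrl at d4, and did not pass (adjusted p = 0.144). In the FGF list 3 of 17 rose, against the same 1.37%: FGF8 with the feedback phosphatase DUSP6 and the ETS factor ETV5. DUSP6 was at 10.4 FPKM in V1PAKI and 9.68 in Ctrl at d10, against 1.05 in V1PAKI and 1.57 in Ctrl at d4 (2.26, SE 0.30, adjusted p = 0.0171). At d0, in medium with FGF-2, it had been at 83.9 FPKM in V1PAKI and 60.1 in Ctrl.

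Of 18 genes of BMP and TGF beta signalling 2 rose, TGFB2 among them, against 1.37% of all genes called higher. No member of the hedgehog list of 8 passed. GLI1, the readout of hedgehog signalling, was at 1.83 FPKM in V1PAKI and 2.55 in Ctrl at d10, against 6.14 in V1PAKI and 6.88 in Ctrl at d4 (adjusted p = 0.135). BOC, a hedgehog coreceptor, was at 4.64 FPKM in V1PAKI and 5.75 in Ctrl at d10, against 1.46 in V1PAKI and 1.68 in Ctrl at d4 (adjusted p = 0.0565). No retinoic acid gene of 9 passed, and CYP26A1, which degrades retinoic acid, was at 16.1 FPKM in V1PAKI and 14.5 in Ctrl at d10, against 33.9 in V1PAKI and 47.5 in Ctrl at d4 (adjusted p = 0.186).

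Of 13 imprinted genes, 11 were higher at d10 in each line, against 6801 of all 13451 genes in V1PAKI and 6025 in Ctrl. Of the 13 measured, 4 rose (DLK1, PEG10, MEST and NDN) and none fell, against 1.37% of all genes called higher. The median change was 1.19 in V1PAKI and 1.29 in Ctrl. PEG10, a retrotransposon-derived gene of placenta, was at 77.3 FPKM in V1PAKI and 47.8 in Ctrl at d10, against 20.6 in V1PAKI and 26.4 in Ctrl at d4 (1.35, SE 0.25, adjusted p = 0.0426). MEST was at 118 FPKM in V1PAKI and 96.5 in Ctrl at d10, against 39.7 in V1PAKI and 43.1 in Ctrl at d4. The growth factor IGF2 was at 65.6 FPKM in V1PAKI and 552 in Ctrl at d10, against 12.3 in V1PAKI and 14 in Ctrl at d4, and did not pass (3.76, SE 1.47, adjusted p = 0.252). H19, the noncoding RNA of the same domain, was at 102 FPKM in V1PAKI and 434 in Ctrl at d10, against 24.3 in V1PAKI and 7.76 in Ctrl at d4 (adjusted p = 0.241).

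**Figure D3:**
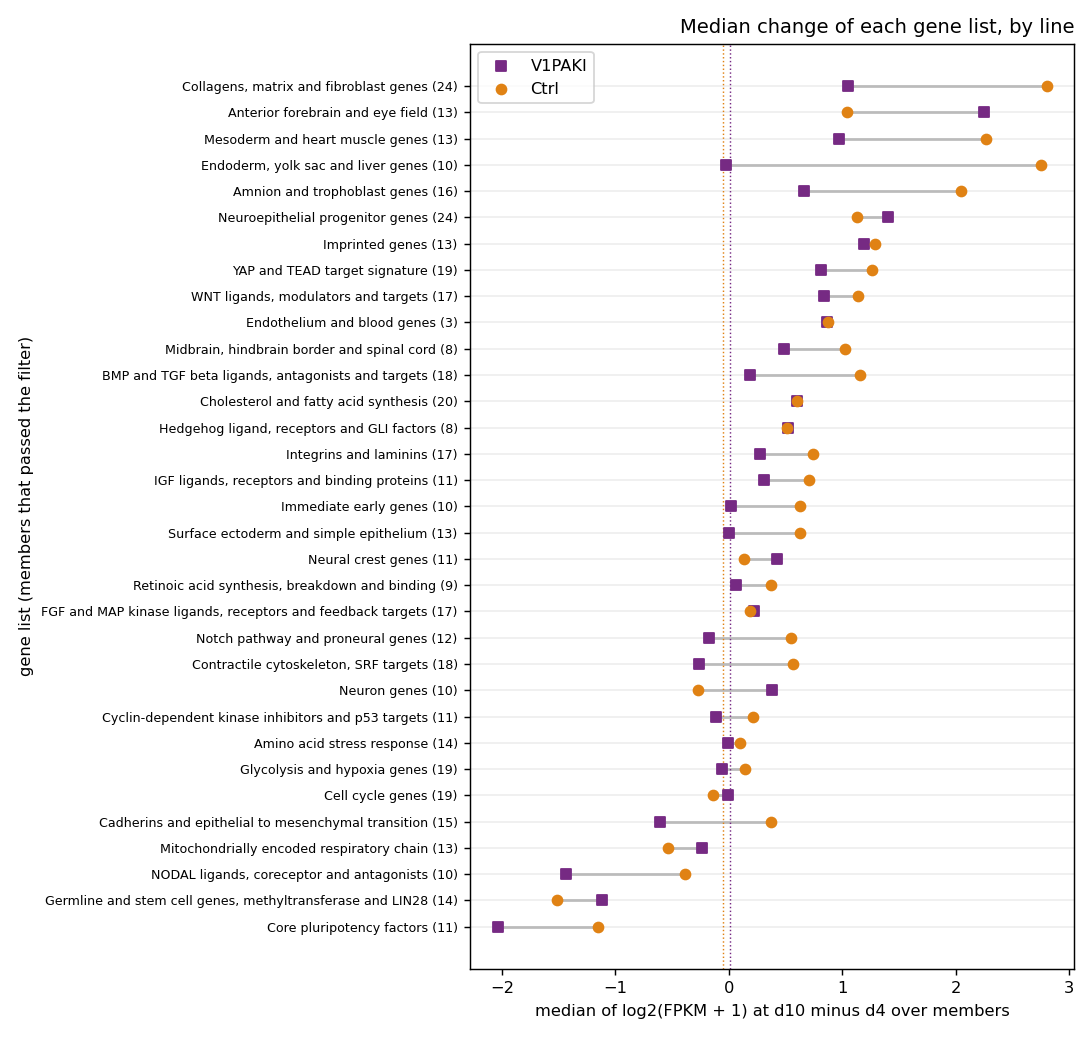
Median change of each gene list, as log2(FPKM + 1) at d10 minus d4, in V1PAKI (squares) and Ctrl (circles); the number of members that entered the test is in brackets, and dotted lines mark the median of all genes in each line. Core pluripotency factors stand lowest, at -2.04 in V1PAKI and -1.15 in Ctrl, and endoderm genes have the widest gap, at -0.02 in V1PAKI and 2.75 in Ctrl.

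Genes of matrix, heart and amnion, which mark cells outside the neural lineage, had higher summed levels at d10 in both lines, with the higher sums in Ctrl. Of 24 matrix and fibroblast genes 2 rose, FBN1 and TGM2, against 1.37% of all genes called higher. In both lines 13 were higher by at least 1, with a median change of 1.05 in V1PAKI and 2.80 in Ctrl. The summed level of that list was 545 FPKM in V1PAKI and 1781 in Ctrl at d10, against 308 in V1PAKI and 258 in Ctrl at d4. FBN1, the fibrillin of microfibrils, was at 5.48 FPKM in V1PAKI and 5.14 in Ctrl at d10, against 0.673 in V1PAKI and 0.783 in Ctrl at d4 (1.87, SE 0.24, adjusted p = 0.0165). COL3A1, a fibroblast collagen, was at 63.7 FPKM in V1PAKI and 379 in Ctrl at d10, against 9.48 in V1PAKI and 6.32 in Ctrl at d4, and did not pass (4.16, SE 1.55, adjusted p = 0.232). LUM, the proteoglycan lumican, was at 51.6 FPKM in V1PAKI and 99.1 in Ctrl at d10, against 4.10 in V1PAKI and 4.13 in Ctrl at d4 (adjusted p = 0.177). The error of the fit takes in day 16 as well, where the lines lay apart in opposite directions. LUM was at 92.1 FPKM in V1PAKI and 15.4 in Ctrl at d16D, and at 1.12 in V1PAKI and 40.2 in Ctrl at d16V. COL3A1 had the same order of the lines in both arms. In bulk RNA, more cells of such a type and more RNA per cell cannot be told apart.

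Of 13 mesoderm and heart genes NPPB alone passed, with a median change of 0.97 in V1PAKI and 2.27 in Ctrl. The list summed to 81.1 FPKM in V1PAKI and 364 in Ctrl at d10, against 19.3 in V1PAKI and 19.8 in Ctrl at d4, and most of the d10 sum was HAND1, at 41.4 FPKM in V1PAKI and 223 in Ctrl. Its defining markers were lower: TNNT2, cardiac troponin T, was at 0.445 FPKM in V1PAKI and 2.58 in Ctrl at d10, and MYL7, the atrial light chain, at 3.21 in V1PAKI and 12 in Ctrl. Of 16 amnion and trophoblast genes CGA and GABRP rose, against 1.37% of all genes called higher. The median change of that list was 0.66 in V1PAKI and 2.04 in Ctrl. Its summed level was 183 FPKM in V1PAKI and 601 in Ctrl at d10, against 41.0 in V1PAKI and 43.8 in Ctrl at d4. HAND1 belongs to this list too, so its levels count in the heart sum and in the amnion sum. VTCN1, an amnion surface protein, was at 4.34 FPKM in V1PAKI and 7.73 in Ctrl at d10, against 0.396 in V1PAKI and 0.524 in Ctrl at d4 (adjusted p = 0.132). Of the endothelial and blood markers, HBE1 was listed at 0 in all 4 libraries and PECAM1 stayed below 0.3 FPKM. Of 11 measured neural crest genes none passed, and SOX10 was at 1.25 FPKM in V1PAKI and 0.512 in Ctrl at d10, against 1.26 in V1PAKI and 1.37 in Ctrl at d4. The part of these cell types in the rises of ACTA2 and TGM2 was not tested.

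Several liver and yolk sac genes, a collagen and keratins were higher at d10 in Ctrl with little change in V1PAKI. Of 10 measured endoderm genes none passed, 3 were higher in Ctrl alone, and the median change was -0.02 in V1PAKI and 2.75 in Ctrl. TTR, the thyroxine carrier transthyretin, was at 3.21 FPKM in V1PAKI and 29.4 in Ctrl at d10, against 3.22 in V1PAKI and 1.22 in Ctrl at d4. AHSG, a secreted fetal liver protein, was at 1.24 FPKM in V1PAKI and 14.8 in Ctrl at d10, against 0.77 in V1PAKI and 0.124 in Ctrl at d4. RBP4, the plasma retinol carrier, and FGB, a fibrinogen chain, followed the same course. COL1A1, the main fibroblast collagen, was at 14.8 FPKM in V1PAKI and 130 in Ctrl at d10, against 13.7 in V1PAKI and 12.7 in Ctrl at d4. SLC16A3, a lactate exporter, was at 1.59 FPKM in V1PAKI and 15.6 in Ctrl at d10, against 1.04 in V1PAKI and 1.06 in Ctrl at d4.

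KRT8, a keratin of simple epithelium, was at 65.1 FPKM in V1PAKI and 221 in Ctrl at d10, against 62.9 in V1PAKI and 41.2 in Ctrl at d4, and its partner KRT18 was at 75.4 in V1PAKI and 237 in Ctrl, against 86.9 in V1PAKI and 58.2 in Ctrl. The gap between the lines did not keep its direction at day 16: TTR was at 417 FPKM in V1PAKI and 68.2 in Ctrl at d16D, and at 1.57 in V1PAKI and 39.2 in Ctrl at d16V. ALB, the liver's albumin, was at 0.174 FPKM in V1PAKI and 0.34 in Ctrl at d10.

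FEZF1 and its antisense neighbour were higher at d10 in V1PAKI alone. FEZF1-AS1 was at 50.1 FPKM in V1PAKI and 19 in Ctrl at d10, against 7.64 in V1PAKI and 17.1 in Ctrl at d4. It overlaps FEZF1, a zinc finger factor of the forebrain, on the other strand, and the strand used in counting is not known, so the pair cannot be told apart with certainty. FEZF1 itself was at 84.9 FPKM in V1PAKI and 39.5 in Ctrl at d10, against 17.1 in V1PAKI and 38.2 in Ctrl at d4. HESX1, a homeobox repressor of the anterior neural plate and a gene chosen after its values were seen, changed by 2.50 in V1PAKI and -0.91 in Ctrl and lay outside that class. It was at 40.6 FPKM in V1PAKI and 6.53 in Ctrl at d10, against 6.37 in V1PAKI and 13.1 in Ctrl at d4. SIX3, its companion in the forebrain and likewise chosen, was higher in both lines, by 3.48 in V1PAKI and 1.04 in Ctrl, at 76.3 FPKM in V1PAKI and 32.5 in Ctrl at d10, against 5.95 in V1PAKI and 15.3 in Ctrl at d4. MAB21L2, described above, had its higher d10 level in Ctrl.

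**Figure D4:**
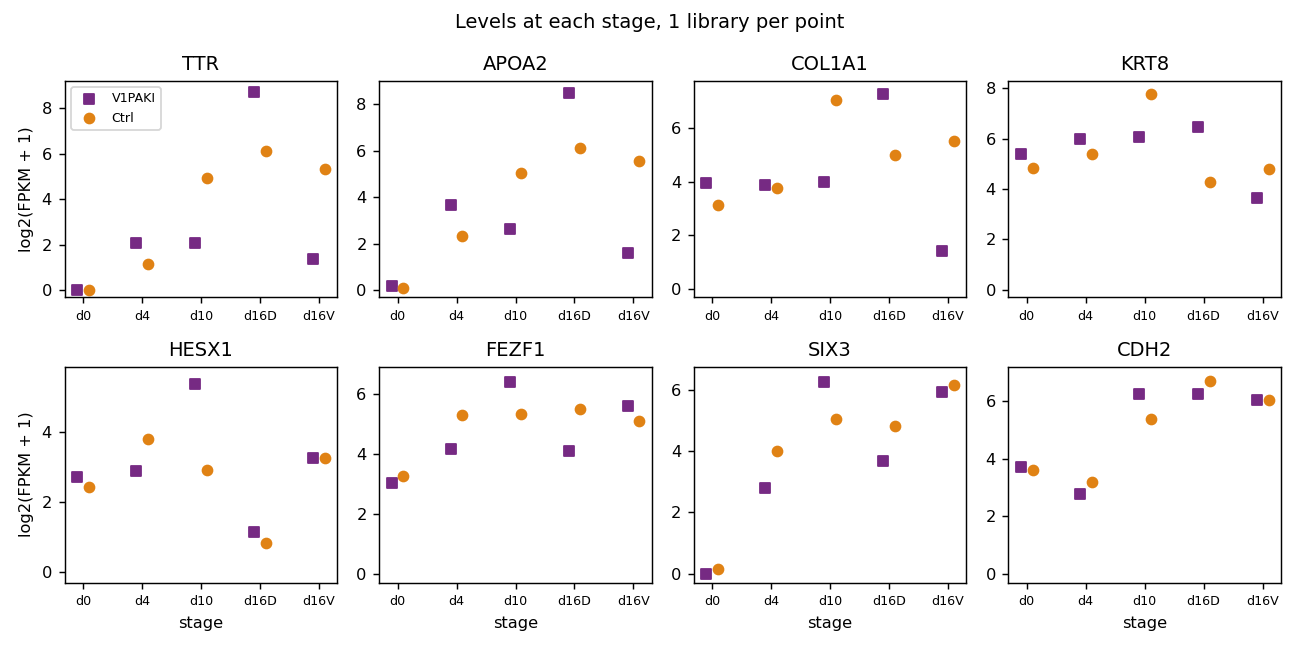
Level of 8 genes at each stage, as log2(FPKM + 1) on the vertical axis, in V1PAKI (squares) and Ctrl (circles), 1 library per point. TTR, APOA2, COL1A1 and KRT8 are higher in Ctrl at d10 and in V1PAKI at d16D; HESX1, FEZF1 and SIX3 are higher in V1PAKI at d10; CDH2 is high at d10 in both lines.

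A pair of noncoding transcripts on chromosome X led the rises seen in V1PAKI alone. AL035425.3 (chrX:108719949-108724944, minus strand) was at 46.7 FPKM in V1PAKI and 7.26 in Ctrl at d10, against 5.84 in V1PAKI and 6.98 in Ctrl at d4. AL035425.4, just beside it, was at 29.3 FPKM in V1PAKI and 5.12 in Ctrl at d10, against 3.47 in V1PAKI and 5.26 in Ctrl at d4. Both overlap the annotated protein-coding gene AL035425.2, so their reads cannot be told apart from its own with certainty. Among falls in V1PAKI alone, the neuropeptide galanin, GAL, was at 3.31 FPKM in V1PAKI and 21.7 in Ctrl at d10, against 32.1 in V1PAKI and 29 in Ctrl at d4. CHCHD10, a mitochondrial protein of the cristae, was at 1.91 FPKM in V1PAKI and 9.59 in Ctrl at d10, against 17.4 in V1PAKI and 13.7 in Ctrl at d4. SNORD104, a small nucleolar RNA, was at 1.07 FPKM in V1PAKI and 8.15 in Ctrl at d10, against 13.5 in V1PAKI and 10.7 in Ctrl at d4.

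The test of the difference between the lines called 1 of 13451 genes (0.00743%), although 820 genes changed more positively in V1PAKI and 320 more positively in Ctrl at an unadjusted p under 0.05. That imbalance turned with median-of-ratios scaling, at 499 and 755, and with the GC and length trend removed the counts were 186 and 172. For the 12 genes named above as the largest in a single line, the adjusted p of the difference lay between 0.546 and 0.731, so none of them passed. The gene called was AL035078.4 (chr11:31812391-32104665, plus strand), listed at 0 in V1PAKI and at 21.5 FPKM in Ctrl at d10, against 10.9 in V1PAKI and 1.181 in Ctrl at d4 (adjusted p = 0.0471). Its annotated span overlaps PAX6 and RCN1, and in the other 3 stages the lines differed by little, with 16.3 FPKM in V1PAKI and 16 in Ctrl at d0. The call was lost when genes reaching 1 FPKM in 1 library were let in. When any gene above 0 FPKM in at least 1 of the 4 libraries was let in, called no filter below, 120 genes passed.

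Of the 6 genes with the largest changes in opposite directions, 3 were read-through transcripts. URGCP-MRPS24 was listed at 0 in V1PAKI and at 3.56 FPKM in Ctrl at d10, against 7.53 in V1PAKI and a listed 0 in Ctrl at d4. BLOC1S5-TXNDC5 was listed at 0 in V1PAKI and at 4.84 FPKM in Ctrl at d10, against 2.90 in V1PAKI and a listed 0 in Ctrl at d4. Each overlaps its 2 parent genes, so shared reads can be split either way. APOA2, an apolipoprotein of liver and yolk sac, was at 5.14 FPKM in V1PAKI and 31.9 in Ctrl at d10, against 11.7 in V1PAKI and 4.07 in Ctrl at d4. TGIF2-RAB5IF was at 0.186 FPKM in V1PAKI and 6.63 in Ctrl at d10, against 3.44 in V1PAKI and 1.33 in Ctrl at d4, and AC008878.1 went the other way, at 9.18 FPKM in V1PAKI and 0.157 in Ctrl at d10, against a listed 0 in V1PAKI and 1.77 in Ctrl at d4.

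The single-line classes moved with GC content. Genes lower in V1PAKI alone had a median GC of 61.1%, against 50.1% over all genes tested, and genes higher in V1PAKI alone had 43.8%. In Ctrl alone the order was turned, at 58.9% for genes higher and 41.1% for genes lower. Genes were put in 5 bins of equal size by GC. From the lowest to the highest bin, the median change in V1PAKI was 0.37, 0.22, 0.02, -0.23 and -0.50 on the log2 scale, and in Ctrl -0.36, -0.16, -0.01, 0.08 and 0.12. The highest bin held 345 of the genes lower in V1PAKI alone and the lowest bin held 6. With the trend on GC content and length removed from each library, 227 genes were lower in V1PAKI alone and 156 higher, and 58 were lower in Ctrl alone and 135 higher.

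The classes shared by both lines had GC near that of all genes, at 50.4% for those higher and 51.6% for those lower. After the trend was removed, 327 genes were higher in both lines and 213 lower, and 265 of the 326 and 154 of the 189 were in their class both ways. Of the 296 genes called, 276 were called again after removal. TTR and AHSG kept their rise in Ctrl alone, at 3.82 and 3.67, and RBP4 and FGB also kept that class. FEZF1-AS1, AL035425.3, AL035425.4 and SNORD104 kept that of V1PAKI alone. Other genes left their class because the second line's change passed 0.5 in size. COL1A1 was then at 0.56 in V1PAKI and 3.10 in Ctrl, and SLC16A3 at 0.95 in V1PAKI and 2.82 in Ctrl. CHCHD10 was at -1.99 in V1PAKI and -0.65 in Ctrl, and GAL at -2.31 in V1PAKI and -0.59 in Ctrl.

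**Figure D5:**
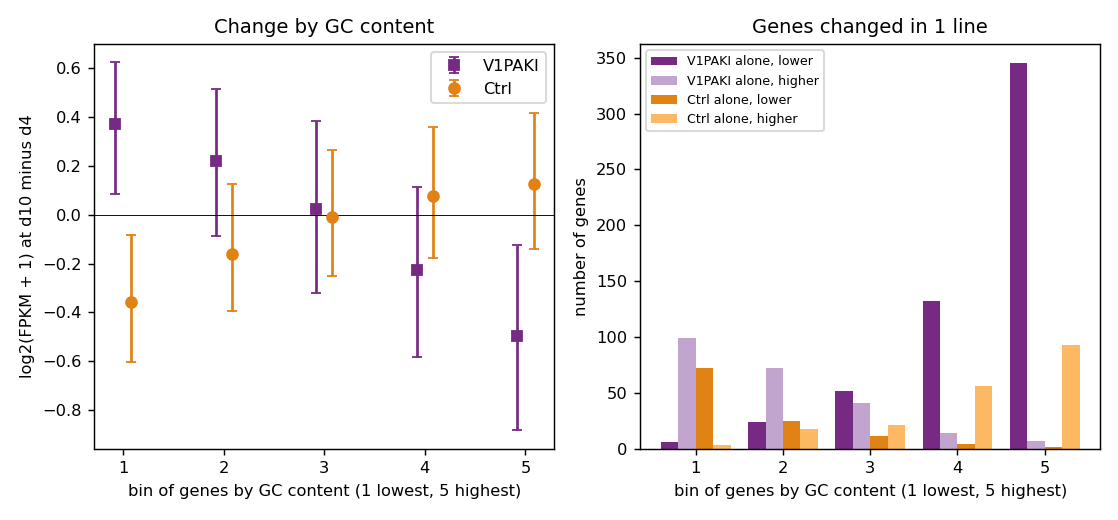
Left, median change with the quartile range, as log2(FPKM + 1) at d10 minus d4, over 5 equal bins of genes by GC content, in V1PAKI (squares) and Ctrl (circles); right, number of genes in each single-line class by bin. The median falls in V1PAKI from 0.37 in the lowest bin to -0.50 in the highest, and 345 genes lower in V1PAKI alone lie in the highest.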

How the data were processed

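Per the labels' protocols, Trizol was used to extract RNA and Illumina's TruSeq kit to build the libraries. FPKM, as the authors deposited it for 42335 gene symbols in 10 libraries, was used as given. Per the submitters' processing notes, the build was GRCh38 and the tools included Cufflinks, HISAT2 2.1.0 and cutadapt 1.18, in no stated order. Neither annotation nor strand setting is given in the sources used here. Low values resolved into no whole reads, so depth is unknown and no counting interval could be given. No pair of libraries held identical values.

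Values were analysed as log2(FPKM + 1), which understates changes of low genes. The genes that reached 1 FPKM in 2 or more of the 4 libraries entered limma 3.58.1 in R 4.3.3 (lmFit and eBayes, intensity trend on) over all 10 libraries, with stage and line as terms and 4 residual degrees of freedom. Line is the block that pairs d10 with d4, because paired samples come from the same cell line. The difference between the lines in that change was a second limma contrast, with 2 residual degrees of freedom from d0, d16D and d16V. Tests were two-sided, with Benjamini-Hochberg adjustment over 13451 genes at 0.05. An exact test over 2 pairs cannot go below p = 0.5, so none was run. Each fit was tested on simulated data first. Changes within a line have no replicate and were only counted. GC content and length were medians over transcripts in GENCODE annotation of GRCh38, known for 98.5% of genes tested, and coordinates came from that annotation.

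The members and the 35 gene lists, with 576 genes of which 575 were in the deposited values and 433 entered the test, were chosen with earlier results of these data known. Named genes were the 12 largest rises and falls among genes called with the same sign in both lines, the 6 largest of each line alone and of the opposite class, up to 3 called or shared members of each list (otherwise the 2 with the largest change), every called member of the 8 lists with the most, and the title's genes. Marker genes, CCN2, CCN1, SOX2, ELAVL4, EN1, EN2, CDH1, MYL9, AXIN2, KRT8, KRT18, HESX1, SIX3, FEZF1, ALB, LAMA1, NID1, LGR5, ETV5, MAB21L2, TOP2A and the HOX genes were named after their values were seen. Some results under these rules are not reported here. Alternatives changed the pseudocount, filter, scaling, GC correction, thresholds, block and libraries.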

Additional observations from a re-analysis of the deposited data

Results flagged for a closer look

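In 6 genes V1PAKI moved one way and Ctrl the other by at least 1 on the log2 scale, with the largest differences between the lines (V1PAKI change minus Ctrl change). The test of that difference passed for AL035078.4 at -6.94 (limma adjusted p = 0.0471), where the V1PAKI d10 library is listed at 0. It did not pass for URGCP-MRPS24 at -5.28, BLOC1S5-TXNDC5 at -4.51 or TGIF2-RAB5IF at -3.61, nor for AC008878.1 at 4.6, whose V1PAKI d4 library is listed at 0. It did not pass for APOA2 at -3.74 either (adjusted p = 0.626).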

How the results depend on the processing

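In the order genes called higher and lower, the fit gave 184 and 112. It gave 194 and 41 with a pseudocount of 0.1, 10 and 8 with no filter, 161 and 86 with 1 FPKM in 1 library, 116 and 60 with 5 FPKM in 2 libraries, 283 and 43 with TPM, and 373 and 315 with the GC and length trend removed. The 4 libraries alone gave 599 and 403, and with no replicate block the fit gave 282 and 193, of which 290 were shared with the 296. Without the 4 day 16 libraries, an alternative added after seeing the data, it gave 136 and 48. With 1 library left out in turn the rises ranged between 0 and 211 and the falls between 0 and 179; without V1PAKI d4 or V1PAKI d10 limma called none, with 1025 and 2771 genes at an unadjusted p under 0.05. Of 61 named genes called, 46 were called with a pseudocount of 0.1, 48 with TPM and 5 with no filter, and none turned its direction.

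The difference between the lines called 1 gene, 120 with no filter and 0 with 1 FPKM in 1 library (limma; 864 above and 351 below at an unadjusted p under 0.05); it could not be estimated with any of the 4 libraries left out. At an unadjusted p, 820 genes changed more positively in V1PAKI and 320 in Ctrl; median-of-ratios scaling gave 499 and 755, and removal of the GC and length trend 186 and 172.

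With a pseudocount of 0.1, 600 genes were higher and 398 lower in both lines, 442 higher in V1PAKI alone, 269 lower in Ctrl alone and 66 opposite. With TPM the same classes held 648 higher in both, 666 higher in V1PAKI alone, 184 lower in Ctrl alone and 61 opposite. Ctrl alone had 340 higher with no filter or with 1 FPKM in 1 library. At 5 FPKM there were 171 higher in both, 100 higher in V1PAKI alone, 79 higher in Ctrl alone and 8 opposite. The GC correction left 156 higher and 227 lower in V1PAKI alone and 58 lower in Ctrl alone. A change of 2 left 56 higher and 15 lower in both, 7 and 21 in V1PAKI alone, 24 and 1 in Ctrl alone and 2 opposite; with GC corrected, also added later, these were 58, 14, 8, 8, 18, 0 and 3. Under 0.25 in the other line there were 129 higher and 339 lower in V1PAKI alone and 95 and 69 in Ctrl alone. The HDAC10 change in V1PAKI was -0.84, and -0.24 with GC corrected. The cause of these shifts was not tested.

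Each line has 1 library per stage, so repeated cultures were not sampled, and attachment, medium and time cannot be told apart.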

Other observations

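Cell cycle genes showed no call among 19 measured (limma; median change -0.01 in V1PAKI and -0.14 in Ctrl). The largest mean changes were those of CCND2, at 1.34 in V1PAKI and 0.92 in Ctrl, and MCM5, at -1.10 in V1PAKI and -0.41 in Ctrl. TOP2A, the topoisomerase of dividing cells and a gene chosen after its values were seen, was at 125 FPKM in V1PAKI and 46.7 in Ctrl at d10, against 71.6 in V1PAKI and 72.7 in Ctrl at d4. Of 20 genes of cholesterol and fatty acid synthesis 17 were higher at d10 in V1PAKI and 19 in Ctrl, against 6801 of all 13451 genes in V1PAKI and 6025 in Ctrl, with a median change of 0.60 in both lines, and none passed. Their summed level was 716 FPKM in V1PAKI and 697 in Ctrl at d10, against 457 in V1PAKI and 449 in Ctrl at d4. At d0 it had been higher, at 1096 FPKM in V1PAKI and 1074 in Ctrl. HMGCS1, an early enzyme of the pathway, was at 61.0 FPKM in V1PAKI and 33.1 in Ctrl at d10, against 20.2 in V1PAKI and 20.5 in Ctrl at d4 (adjusted p = 0.161). CDKN2B, an inhibitor of cell cycle entry, rose, at 2.09 FPKM in V1PAKI and 2.56 in Ctrl at d10, against 0.111 in V1PAKI and 0.0659 in Ctrl at d4 (1.61, SE 0.27, adjusted p = 0.0326).

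HOX genes, which set position along the trunk, did not enter the test. In the HOXB cluster, HOXB2 was at 0.866 FPKM in V1PAKI and 8.03 in Ctrl at d10, HOXB3 at 0.664 in V1PAKI and 4.70 in Ctrl, HOXB4 at 0.396 in V1PAKI and 4.21 in Ctrl, and HOXB5 at 0.912 in V1PAKI and 4.08 in Ctrl. At d4 these genes were below 0.5 FPKM in both lines. SOX17, an endoderm factor, likewise had 0.841 FPKM in V1PAKI and 5.69 in Ctrl at d10, against 0.568 in V1PAKI and 0.25 in Ctrl at d4.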
